A study of Rattus norvegicus with 4 samples.

Results

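The genes described here encode the nuclear subunits of oxidative phosphorylation in rat liver. They were chosen by symbol alone, as names beginning with Nduf (subunit classes a, b, c, s and v), Uqcr, Cox (4 to 8 with a letter from a to c) or Atp5, together with the 4 Sdh genes and *Cyc1*. Of 81 matching symbols the pseudogene *Cox6c-ps1* was left out, which gave 80 of the 16999 named genes analysed, with 34 in complex I, 4 in complex II, 9 in complex III, 16 in complex IV and 17 in complex V. Of these, 74 had a mean TPM (transcript level scaled for gene length and library size) of at least 1 over the 4 libraries. The other 6 are described below.

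Livers of wild-type rats were sequenced after inhalation of sevoflurane at 4.5% or desflurane at 6%, both halogenated inhalational anesthetics. A control rat was killed at loss of consciousness (0 h) and a second rat after 6 h of anesthesia with each agent. Agent and time made 4 groups of 1 library each, so single-agent comparisons are differences between single animals, without replicate error. The controls had also inhaled the agent, and livers were taken 6 h apart, so anesthesia and time of day cannot be told apart. In whole liver, fewer cells of a type and less RNA per cell cannot be told apart either.

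Oxidative phosphorylation takes place in the inner mitochondrial membrane. Complexes I and II pass electrons from NADH and succinate to ubiquinone, complex III passes them to cytochrome c, complex IV passes them to oxygen, and complex V (ATP synthase) uses the proton gradient built by complexes I, III and IV. Core subunits carry the catalytic groups, whereas supernumerary subunits surround and stabilize them. Mitochondrial DNA encodes 13 of the subunits, and the remainder, like every subunit of complex II, are encoded in the nucleus. Hepatocytes rely on this system for the ATP used in glucose and urea synthesis.

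The promoters of these genes are shown first, because the levels of several regulators that act on such promoters are described later. RefSeq (build GRCr8) gave a promoter for 70 of the 80 genes, each covering 250 bases before and 50 after the annotated start. Letters known as binding motifs of 4 factors of mitochondrial genes were searched on both strands. They were GCGCATGC (NRF1), CCGGAAG (GABP), AAGGTCA (estrogen-related receptors, ERR) and AAGATGG (YY1), and matches of different motifs did not overlap in the promoters printed. The promoters below are, for each complex, the first in alphabetical order among those with the most kinds of motif, together with *Ndufb5*, the subunit with the lowest p in the test described later. Capitals mark the motif matches on either strand, and the sequences read 5′ to 3′ on the strand of the gene.
Ndufa6, chr7:115750268-115750567, minus strand: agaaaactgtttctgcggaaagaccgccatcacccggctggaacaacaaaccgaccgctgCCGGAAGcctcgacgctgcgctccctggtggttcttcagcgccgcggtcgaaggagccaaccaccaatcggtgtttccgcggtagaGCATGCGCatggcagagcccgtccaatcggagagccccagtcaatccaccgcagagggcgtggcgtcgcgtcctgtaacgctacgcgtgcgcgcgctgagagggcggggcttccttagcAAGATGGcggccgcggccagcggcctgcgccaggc
Sdhb, chr5:158547684-158547983, plus strand: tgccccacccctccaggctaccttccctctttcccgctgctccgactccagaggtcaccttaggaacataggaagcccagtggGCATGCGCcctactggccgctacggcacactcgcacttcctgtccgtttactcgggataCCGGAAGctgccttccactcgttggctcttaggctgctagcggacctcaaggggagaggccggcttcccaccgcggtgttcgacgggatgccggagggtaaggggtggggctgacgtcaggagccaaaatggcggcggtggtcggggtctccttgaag
Uqcrc1, chr8:118467973-118468272, plus strand: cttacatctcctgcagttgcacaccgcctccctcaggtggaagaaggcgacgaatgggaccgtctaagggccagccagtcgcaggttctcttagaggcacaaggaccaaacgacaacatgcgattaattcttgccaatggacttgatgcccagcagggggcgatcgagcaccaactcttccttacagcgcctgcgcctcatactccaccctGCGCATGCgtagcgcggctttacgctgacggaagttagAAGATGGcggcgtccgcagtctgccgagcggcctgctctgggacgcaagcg
Cox8a, chr1:213833574-213833873, minus strand: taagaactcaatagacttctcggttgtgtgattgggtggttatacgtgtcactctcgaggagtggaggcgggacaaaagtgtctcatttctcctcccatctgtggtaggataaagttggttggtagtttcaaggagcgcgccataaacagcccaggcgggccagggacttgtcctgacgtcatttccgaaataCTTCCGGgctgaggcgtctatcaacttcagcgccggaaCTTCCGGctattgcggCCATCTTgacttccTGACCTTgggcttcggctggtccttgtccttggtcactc
Atp5me, chr14:1464610-1464909, plus strand: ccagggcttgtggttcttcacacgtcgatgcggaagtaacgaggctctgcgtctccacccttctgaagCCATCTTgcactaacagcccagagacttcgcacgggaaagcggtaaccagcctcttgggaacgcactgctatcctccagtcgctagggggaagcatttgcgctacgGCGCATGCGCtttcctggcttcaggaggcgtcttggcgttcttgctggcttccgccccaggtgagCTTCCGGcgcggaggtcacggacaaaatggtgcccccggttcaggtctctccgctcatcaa
Ndufb5, chr2:117447355-117447654, plus strand: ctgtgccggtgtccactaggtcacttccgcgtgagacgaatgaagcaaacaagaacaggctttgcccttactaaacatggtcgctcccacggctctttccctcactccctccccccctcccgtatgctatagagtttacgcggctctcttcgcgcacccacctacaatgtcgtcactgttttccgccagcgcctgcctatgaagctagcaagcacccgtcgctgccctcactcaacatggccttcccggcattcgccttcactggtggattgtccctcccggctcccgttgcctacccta

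The NRF1 letters were present in 9 of 70 promoters (12.9%), against 2.47% of all 33469 promoters and 5.38% of the 7754 promoters of expressed genes. GABP letters were present in 20 (28.6%, against 8.75% and 19.7%), ERR letters in 11 (15.7%, against 4.61% and 2.86%) and YY1 letters in 18 (25.7%, against 7.01% and 8.87%). The promoter of *Atp5me* held 2 overlapping NRF1 matches, 1 on each strand, which appear above as a single run of capitals. Any of the 4 motifs was present in 40 of 70 promoters (57.1%), against 20.8% of all promoters and 32.4% of those of expressed genes. *Ndufb5* held none. Of the 18 YY1 matches, 11 lay at or after the annotated start. The TATA letters TATAAA were present in 7 promoters (10%, against 14.2% of all and 7.17% of those of expressed genes) and the CCAAT letters in 24 (34.3%, against 37.5% and 38.8%). These matches describe letters in a window and not binding.

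The 74 expressed subunits were among the abundant transcripts of the liver and spanned a wide range of levels. Their summed TPM was between 10990 and 12490 over the 4 libraries, a spread of 1.136-fold, or 1.41% to 1.58% of the summed level of named genes. ATP synthase gave the largest sum (4275 to 4735), followed by complex I (2889 to 3359 over 33 genes), complex IV (2296 to 2701 over 11 genes), complex III (983.7 to 1159) and complex II (549.8 to 574.2). The ranges of neighbours in this order did not overlap, but the sums cover different numbers of genes. The median level of a subunit was between 80.8 and 91.1 TPM in complex I and between 224.1 and 255.8 TPM in complex V.

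**Figure D1:**
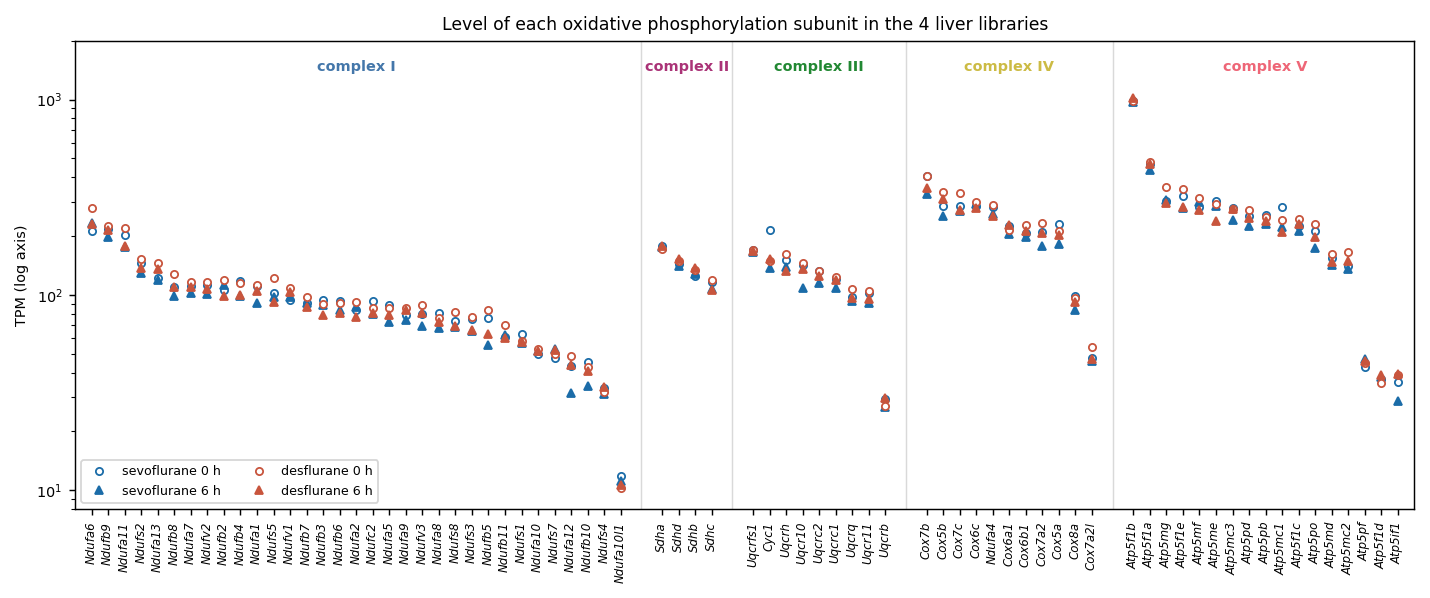
Level of each of the 74 expressed subunits (TPM, log axis), grouped by complex and ordered by mean level; open circles are 0 h libraries and filled triangles 6 h libraries, blue for sevoflurane and red for desflurane. The 4 values of a gene lie close together (median ratio of the highest to the lowest 1.171) while genes differ from 10.3 TPM (*Ndufa10l1*) to 1016 TPM (*Atp5f1b*).

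Within ATP synthase, the catalytic beta subunit *Atp5f1b* (rn6, chr7:2504708-2511748, plus strand) had the highest level of all 80 genes, at 985 and 974 TPM in the sevoflurane libraries (0 h, then 6 h) and 986 and 1016 TPM in the desflurane libraries (0 h, then 6 h). Values of the 4 libraries are given in this order below. The noncatalytic alpha subunit *Atp5f1a*, which alternates with it in the F1 head, was at 465, 434, 477 and 469 TPM, below it in every library. The 3 genes of the proton-carrying c ring, *Atp5mc1*, *Atp5mc2* and *Atp5mc3*, encode the same mature protein and ranged from 136 to 281 TPM. The inhibitor *Atp5if1*, which blocks reverse ATP hydrolysis, was one of the lowest members of the complex at 35.6, 28.5, 38.8 and 39.3 TPM.

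In the other complexes the highest levels belonged to small supernumerary subunits as well as core ones. In complex I, *Ndufa6* was at 212, 234, 277 and 230 TPM and *Ndufb9* at 216, 197, 226 and 215 TPM. Among the selected genes of complex IV, *Cox7b* led with 404, 330, 406 and 354 TPM, followed by *Cox5b* at 285, 254, 336 and 310 TPM. In complex III the highest means belonged to the Rieske iron-sulfur protein *Uqcrfs1* and to cytochrome c1, *Cyc1*. *Uqcrfs1*, at 170, 165, 169 and 167 TPM, was the steadiest of the 74 genes, with a ratio of the highest to the lowest value of 1.028.

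The cytochrome c oxidase subunits whose tissue isoforms had named rows were found almost entirely as the common form. No row was named *Cox7a1* or *Cox7b2*, so the levels of these isoforms could not be given. *Cox6a1* was at 226, 204, 214 and 228 TPM, whereas *Cox6a2*, the heart and skeletal muscle form, was listed at 0 in all 4 libraries. *Cox6b1* was between 198 and 227 TPM and the testis form *Cox6b2* was at 0, 0.13, 0.43 and 0.17 TPM. *Cox8a* was between 84.0 and 99.3 TPM, *Cox8b* was above 0 in sevoflurane 6 h alone (0.20 TPM) and *Cox8c* was listed at 0 throughout. *Ndufa4*, now assigned to complex IV despite its name, was between 252 and 287 TPM, and its paralogue *Ndufa4l2* was at 0.12, 0.49, 0.16 and 0.28 TPM. The supercomplex assembly factor *Cox7a2l* was between 45.8 and 53.8 TPM. Markers of muscle tissue were near 0 as well, 5 of 10 being at 0 everywhere with a summed TPM of 0.08 to 1.18, while all 8 hepatocyte markers were present. *Cox4i1*, whose symbol falls outside the selection, was at 324, 304, 377 and 365 TPM against 0.21, 0.39, 0.20 and 0.31 TPM for *Cox4i2*.

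The sixth gene with a mean below 1 was *Ndufs6*, a complex I accessory subunit, at 1.22, 0.60, 0.77 and 1.03 TPM. Its row covers only 415 bp (rn6, chr2:26471173-26471587). In the RefSeq GRCr8 table *Ndufs6* neighbours *Mrpl36*, and beside each of the 2 *Mrpl36* rows on rn6 chromosome 1 lay an unnamed assembled locus; together these loci reached 75.1, 77.4, 87.0 and 91.7 TPM. Whether they are transcripts of *Ndufs6* was not tested, and the low value of its row was used only in the alternatives with no minimum TPM. The carrier protein *Ndufab1*, also outside the selection, was at 17.6, 15.6, 18.4 and 16.8 TPM by its row but between 64.6 and 79.9 TPM by the overlapping assembled locus.

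The levels of the subunits differed little between libraries. The ratio of the highest to the lowest of the 4 values had a median of 1.171, and all 4 values lay within 1.2-fold for 47 subunits (63.5%) and within 1.5-fold for 71 (95.9%). Over the 9201 genes whose mean TPM reached 1 the median was 1.465, with 14.6% and 53.5% within these limits. Among 2085 genes whose mean TPM reached 25, as 73 of the 74 subunits did, the median was 1.298, with 29.9% and 72.9% within them. By the named rows, the exceptions beyond 1.5-fold were *Cyc1*, *Ndufa12* and *Ndufb5*, with ratios of 1.567, 1.545 and 1.503. For *Ndufa12* the overlapping assembled locus gave closer values, given below.

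After 6 h of sevoflurane, no subunit passed the size criterion (a ratio above 2, the larger TPM being above 2) against the sevoflurane control, whereas 8.75% of all genes did (5.04% higher, 3.71% lower). The same was found with desflurane, with 0 of 74 subunits against 9.65% of all genes (4.1% higher, 5.55% lower). Between the 2 controls and between the 2 libraries at 6 h, 0 of 74 subunits passed as well, against 2.76% and 3.99% of all genes. With a ratio above 1.5 the only subunit was *Cyc1*, lower after sevoflurane, against 23.3% of all genes for sevoflurane in either direction. The other comparisons gave 0 subunits, against 24.2% for desflurane, 10.6% between the controls and 14.3% between the 6 h libraries.

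Below that size, subunits of every complex except II had medians below 0 with both agents. On the scale of log2(TPM + 1), the median change over the 74 subunits was -0.12 for each agent. With sevoflurane 61 subunits had a change below 0 (44.5% of all genes) and with desflurane 60 (61.7% of all genes). Both changes were below 0 for 51 subunits (68.9%, against 34.6% of all genes) and both were above 0 for 4. The share below 0 with both agents was 43.7% among genes whose mean TPM reached 25, and 67.5% among 77 cytosolic ribosomal proteins, whose medians were -0.13 and -0.12, close to those of the subunits. Over all genes the median was 0.05 for sevoflurane but -0.10 for desflurane, and 68 subunits lay below it with sevoflurane and 40 with desflurane. When TPM values were scaled by the median ratio over genes, the subunits' medians were -0.18 and -0.0019, beside -0.0020 and -0.00078 for all genes, and 69 and 39 subunits were below 0.

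**Figure D2:**
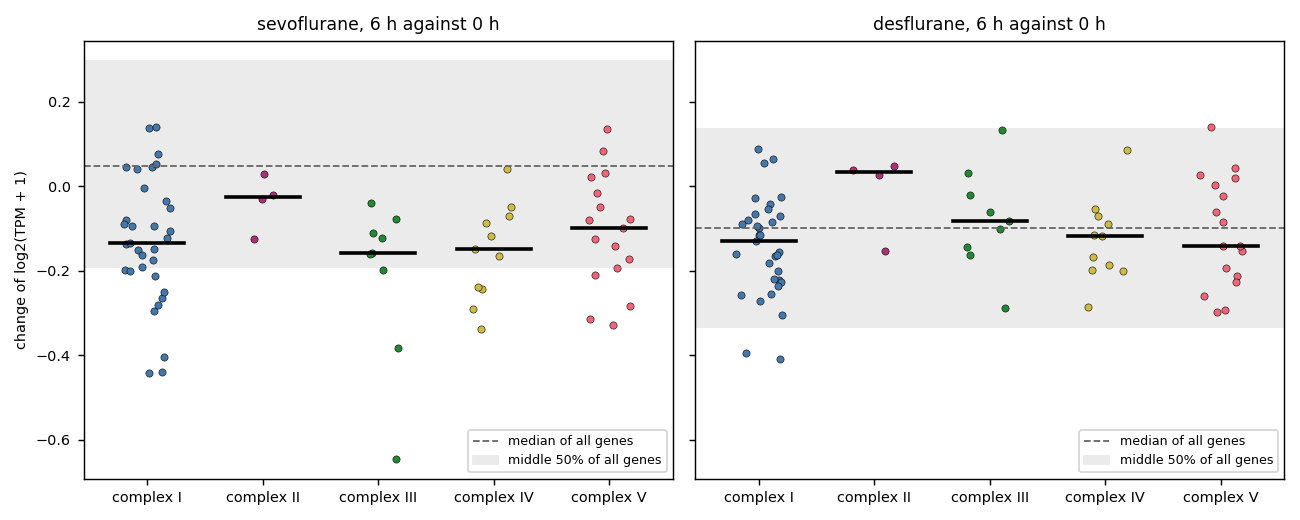
Change of log2(TPM + 1) from 0 h to 6 h for each subunit by complex, with sevoflurane (left) and desflurane (right); black bars are medians of a complex, the dashed line is the median of all genes and the grey band holds the middle 50% of them. Complexes I, III, IV and V have medians between -0.08 and -0.16, and complex II lies nearest to 0 with sevoflurane and above 0 with desflurane.

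The complexes differed only slightly. With sevoflurane the medians were -0.13 for complex I, -0.03 for complex II, -0.16 for complex III, -0.15 for complex IV and -0.10 for complex V. With desflurane they were -0.13, 0.03, -0.08, -0.12 and -0.14, and with scaled TPM they were -0.015, 0.15, 0.03, -0.0037 and -0.027, so the sign of complex III changed and the values of complexes I, IV and V came close to 0. With sevoflurane, scaling took complex II from -0.03 to -0.08. All 9 subunits of complex III were below 0 with sevoflurane and 7 with desflurane. In complex IV, 10 of 11 subunits were below 0 with each agent, *Cox6c* being the exception with sevoflurane and *Cox6a1* with desflurane. No test of the differences between complexes was made, since there was 1 pair of animals per agent.

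Complex II, which also belongs to the citric acid cycle, was the steadiest in sum, with a spread of 1.044-fold. The flavoprotein *Sdha* was at 178, 176, 172 and 178 TPM and the iron-sulfur protein *Sdhb* at 125, 127, 134 and 138 TPM. The membrane anchors *Sdhc* and *Sdhd* were at 116, 107, 119 and 106 TPM and at 143, 140, 149 and 152 TPM. *Sdhc* was lower at 6 h with both agents, by 0.12 and 0.15 on the log2 scale, without overlap between the times, whereas for *Sdha*, *Sdhb* and *Sdhd* the 0 h and 6 h values overlapped.

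Subunits were next grouped by their place in the complex. In complex I the 11 subunits of classes B and C, which lie in the membrane arm, had median changes of -0.14 (sevoflurane) and -0.18 (desflurane), and all 11 were below 0 with desflurane. The 11 class A supernumerary subunits had medians of -0.12 and -0.10, and with desflurane all 11 were below 0 but 5 were below the median of all genes (-0.10). Of the class B and C subunits, 8 were below it. The 7 nuclear core subunits, which hold the flavin and the iron-sulfur clusters, had medians of -0.15 and -0.12, with *Ndufs7* above 0 with both agents (47.6, 52.5, 50.1 and 52.5 TPM). Of the supernumerary members of the ATP synthase membrane part, *Atp5md*, *Atp5me*, *Atp5mf* and *Atp5mg*, all 4 were below 0, and below the median of all genes, with desflurane (median -0.24) and 2 of 4 were below 0 with sevoflurane (median -0.03). The 5 F1 subunits had medians of -0.08 (sevoflurane) and -0.02 (desflurane), above the membrane group with desflurane but below it with sevoflurane. With desflurane 3 of them were below 0 and 2 above, and *Atp5f1e* had the lowest change of complex V (-0.30). The grouping of complex members by place was made with the values known, and no test was run on it.

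The subunit with the largest single change was *Cyc1* (rn6, chr7:117409576-117411953, plus strand), the cytochrome c1 that hands electrons to cytochrome c. It was at 215, 137, 150 and 153 TPM, so the sevoflurane control was high and the other 3 libraries lay close together. Its log2 change was -0.64 for sevoflurane and 0.03 for desflurane, and the 2 controls differed by -0.52 (desflurane minus sevoflurane). Cytochrome c itself, *Cycs*, was at 157, 105, 149 and 131 TPM, with changes of -0.58 and -0.19.

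*Ndufb5* (rn6, chr2:119139717-119153753, plus strand), a membrane-arm subunit of complex I, was the member that differed most evenly. It was at 75.8, 55.6, 83.5 and 62.7 TPM, both controls above both 6 h libraries, with changes of -0.44 and -0.41. By its named row *Ndufa12*, an accessory subunit, was at 43.2, 31.6, 48.9 and 43.7 TPM, with sevoflurane 6 h alone set apart. The overlapping assembled locus was at 55.6, 50.4, 64.6 and 57.4 TPM. By that locus the changes were -0.14 (sevoflurane) and -0.17 (desflurane), against -0.44 and -0.16 by the row. The cause of this difference was not tested. *Ndufa6* went in different directions, with 0.14 after sevoflurane and -0.27 after desflurane, its desflurane control being the highest of the 4 values.

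Over the 74 subunits, the change with sevoflurane and the change with desflurane were nearly unrelated. Pearson's r across genes was 0.06 and Spearman's rho 0.05, while over all 9201 genes they were 0.63 and 0.46. Changes of the subunits lay between -0.64 and 0.14 with sevoflurane and between -0.41 and 0.14 with desflurane. Those of all genes lay between -4.05 and 6.88 and between -3.35 and 5.69. A narrow range can by itself lower a correlation, so the values for subunits and all genes are not directly comparable. The points share the 4 libraries, and genes are not independent replicates, so no p is given.

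**Figure D3:**
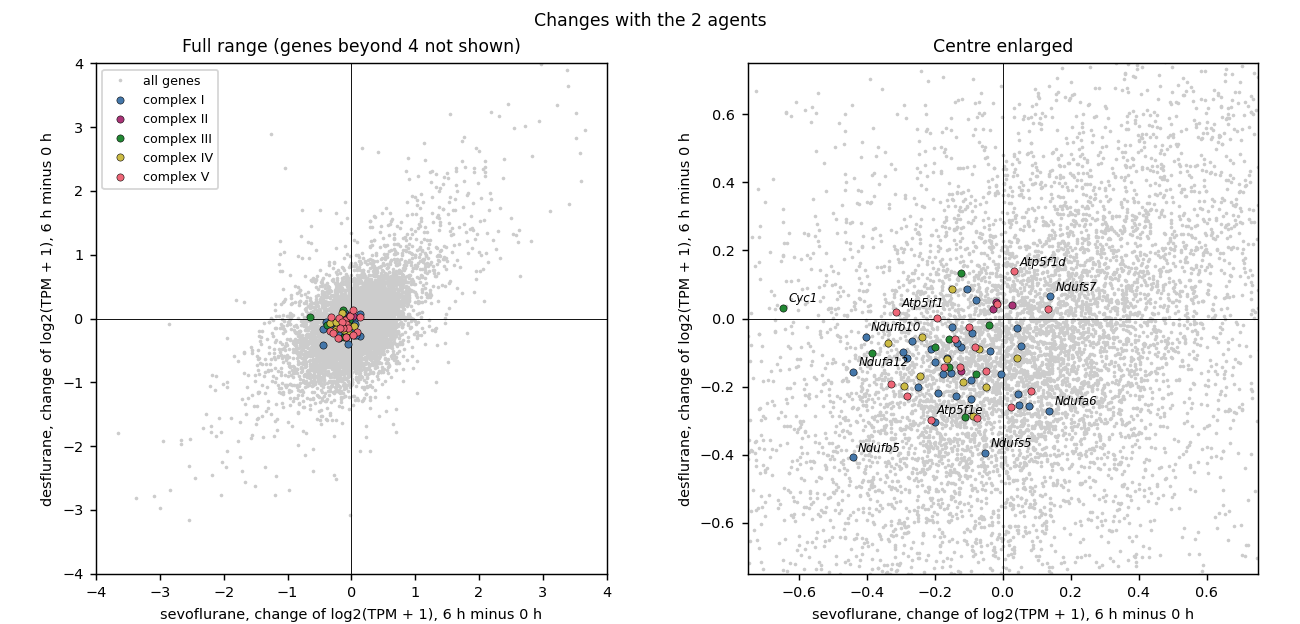
Change of log2(TPM + 1) from 0 h to 6 h with sevoflurane (horizontal) and desflurane (vertical) for all 9201 genes (grey) and for the subunits (coloured by complex); the right panel enlarges the centre. The subunits form a compact group in which r is 0.06, with *Cyc1* far to the left and *Ndufb5* at the lower left.

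A common 6 h change was fitted over both agents by limma, the agent being a block with 1 residual degree of freedom. Of the 74 subunits 66 had an estimate below 0, with a median of -0.14 against -0.03 for all genes. None had an adjusted p (Benjamini-Hochberg over all 8024 genes) below 0.05, whereas 8.62% of all genes did; at an unadjusted p below 0.05 there was 1 subunit by limma, against 19.9% of all genes. This subunit was *Ndufb5*, with a log2 change of -0.42 (SE 0.14, 95% interval -0.73 to -0.12, unadjusted p = 0.011, adjusted p = 0.096 by limma). For *Cyc1* the change was -0.31 (SE 0.16, adjusted p = 0.32 by limma), and without the sevoflurane control it was -0.046. *Cox7b*, *Atp5mc1* and *Atp5po* had changes of -0.24, -0.26 and -0.25, with adjusted p of 0.27, 0.26 and 0.28 by limma. The 95% interval lay within 1 log2 unit of 0 for all 74 subunits and within 1.5-fold for 71. The 1 residual degree of freedom holds the disagreement between the agents. In limma the error of each gene is drawn toward that of other genes, which gave 11.9 degrees of freedom in total. The intervals therefore do not measure the spread between animals for a given subunit.

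**Figure D4:**
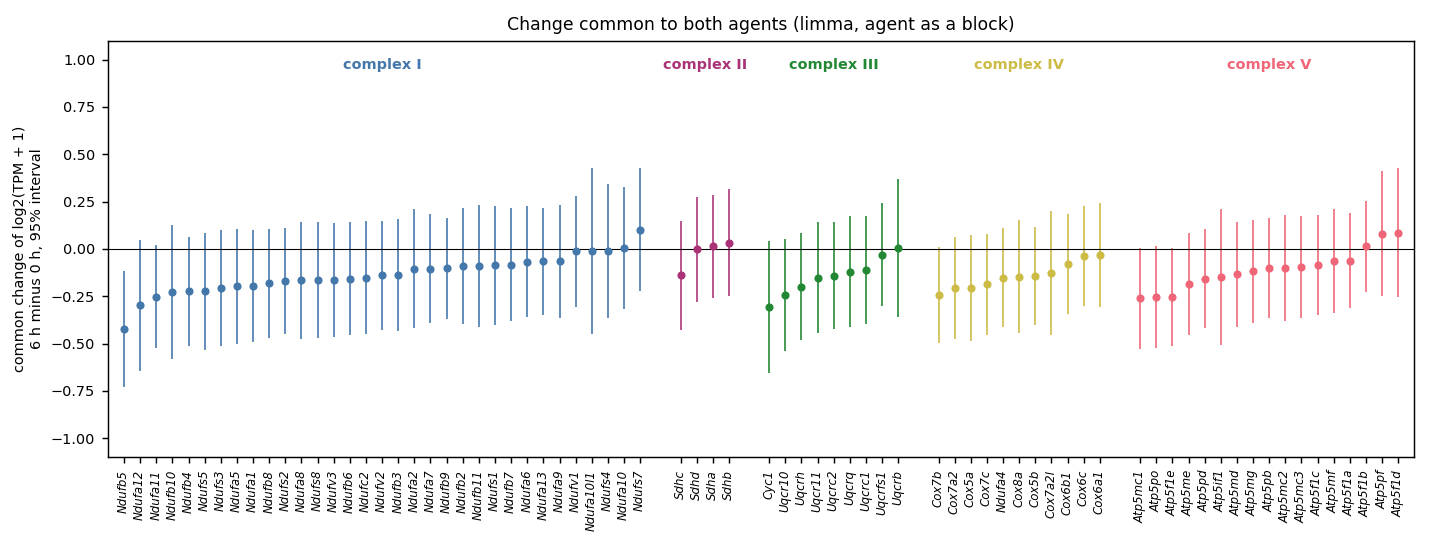
Common change of log2(TPM + 1) from 0 h to 6 h for each subunit with its 95% interval from limma, ordered within each complex. The interval excludes 0 for *Ndufb5* alone, and all intervals stay between -0.73 and 0.43.

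Several regulators known to act on the genes of mitochondrial respiration were higher at 6 h in the same livers. The coactivator *Ppargc1a* (PGC-1 alpha) was at 0.026, 2.48, 0.41 and 9.09 TPM and *Ppargc1b* at 0.90, 2.54, 0.67 and 6.58 TPM. The fatty acid receptor *Ppara* was at 9.70, 32.1, 12.7 and 43.6 TPM. All 3 passed the size criterion with both agents, with common changes of 2.30 (SE 0.29), 1.54 (SE 0.30) and 1.66 (SE 0.18) and adjusted p of 0.00024, 0.0064 and 5.6e-05 by limma. They were the only 3 of 13 genes above a TPM of 2 in the list of regulators of mitochondrial biogenesis that passed in either direction. Over all genes 8.75% passed with sevoflurane and 9.65% with desflurane. For each of the 3 genes both 6 h values lay above both controls. The list as a whole was mixed, with medians of 0.18 (sevoflurane) and -0.13 (desflurane) over 14 genes, of which 4 and 8 were below 0. *Esrra*, which encodes an estrogen-related receptor, was at 9.88, 17.7, 10.8 and 14.2 TPM (common change 0.58, adjusted p = 0.12 by limma). *Nrf1* was between 2.51 and 3.73 TPM, *Gabpa* between 6.29 and 7.81 TPM and *Tfam*, the mitochondrial transcription factor, between 20.2 and 21.6 TPM, none of which passed.

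**Figure D5:**
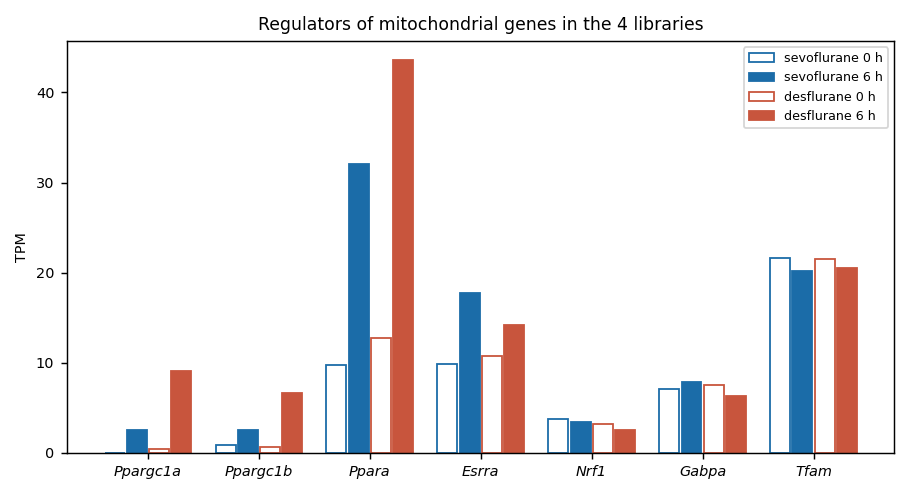
TPM of 7 regulators of mitochondrial genes in the 4 libraries; open bars are 0 h and filled bars 6 h, blue for sevoflurane and red for desflurane, 1 library a bar with no error. *Ppargc1a*, *Ppargc1b* and *Ppara* are higher in both 6 h libraries, and *Nrf1*, *Gabpa* and *Tfam* do not pass the size criterion with either agent.

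Other mitochondrial genes were compared in the same way, with 8.75% (sevoflurane) and 9.65% (desflurane) of all genes called. Of 71 mitochondrial ribosomal proteins, 1 was called with sevoflurane (higher) and 4 with desflurane (2 in each direction), and *Mrps10* was called with both (4.03, 12.7, 4.05 and 8.90 TPM). Among 14 complex I assembly factors *Ndufaf4* was called higher with sevoflurane and *Tmem186* lower with desflurane. Of 24 assembly factors of complexes II to V, *Cox11* was called higher and *Uqcc3* lower with desflurane. Of 20 genes of the citric acid cycle and its pyruvate entry, 1 was called, lower with sevoflurane, and *Pdhb* and *Dlat*, of the pyruvate dehydrogenase complex, were higher in the common change by limma, with changes of 0.75 and 0.73 (adjusted p = 0.0053 and 0.033). Import and proteostasis (23 genes) held 1 lower call with sevoflurane. No gene of coupling and ATP exchange (7 genes above a TPM of 2) or of mitochondrial antioxidant defence (9 genes) was called.

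Marker genes of other cell types and clock genes also differed between the libraries. The summed TPM of red blood cell markers (6 of 7 in the tables) was 611, 1626, 961 and 1807, higher at 6 h with both agents, while leukocyte markers (8 of 9) summed to 181, 148, 179 and 190 and endothelial, stellate and bile duct markers (11 of 12) to 140, 194, 147 and 213. Without the collagen gene *Col3a1* (84.3, 135, 94.6 and 146 TPM) the latter sums were 55.4, 59.2, 52.5 and 67.3, and without the Kupffer cell receptor *Clec4f* those of leukocytes were 46.9, 36.0, 44.5 and 48.7. Brown fat markers (5 of 5, with *Ppargc1b* among them) summed to between 4.70 and 15.5. Of 12 clock genes above a TPM of 2, 9 were called higher and 2 lower with sevoflurane (8.75% of all genes called), and 8 higher and 1 lower with desflurane (9.65%). The part of these differences in the subunits' shifts was not tested.

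Genes present in more than one copy needed care. *Ndufa1* had 2 rows on chromosome X with 26.7 and 84.9, 24.2 and 66.7, 56.0 and 56.8, and 26.5 and 78.7 TPM, whose sums (112, 90.8, 113 and 105 TPM) were used. *Atp5pb*, a peripheral stalk subunit, had 2 rows in sevoflurane 0 h and desflurane 6 h (128 and 128, 120 and 119 TPM) and 1 row of 168258 bp spanning both copies in the other libraries (232 and 250 TPM). Had only the highest row been taken, *Atp5pb* would have shown log2 changes of 0.85 and -1.05 in place of -0.14 and -0.06, and *Ndufa1* -0.34 and 0.46 in place of -0.29 and -0.10.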

How the data were processed

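RNA-seq was performed on 4 rat livers (1 library per group) and groups were taken from the sample labels. Per the labels, total RNA libraries were made with a stranded kit. The submitters' processing notes name HISAT2, SAMtools, StringTie and the rn6 genome, without versions. The authors deposited a gene table per library with TPM, FPKM and coverage. Named genes and assembled loci stand in the same table, so the deposited TPM column is larger in sum than a TPM column should be and was handled as a score. The deposited FPKM and coverage (a signal, mean depth per base) gave the aligned bases, 3.50, 5.38, 5.29 and 5.57 Gb. No read counts were used, so counting errors could not be given. The median coverage of the subunits was between 281 and 431 per library.

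Rows of one symbol were summed, leaving out rows of up to 200 bp. A call needed a TPM above 2 in the higher library and a ratio above 2, as a size criterion with no p. The common change was fitted with limma 3.58.1 in R 4.3.3 (two-sided, eBayes with trend, agent as a block) on log2(TPM + 1) of the 8024 genes whose mean TPM reached 2. This pseudocount understates changes of low genes. The scripts ran in Python 3.11.15 and were tested on simulated data. Members, gene lists and place groups were chosen with earlier results of these data known. The genes named were, per complex, the 2 highest and the 2 with the largest mean change, called members, isoform pairs, the inhibitor, the Sdh genes, named regulators and list members called with both agents; other genes were added after their values were seen, clock genes are given as counts, and some genes are not reported here. Alternatives changed the ratio, the minimum TPM, the pseudocount, the scaling, the control, the rows, the block, the trend and the libraries.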

Additional observations from a re-analysis of the deposited data

Results flagged for a closer look

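The 2 agents gave changes of opposite sign for 19 of the 74 subunits (25.7%, against 37.1% of all genes); with 1 pair of animals per agent this was not tested. The 7 of these that the naming rule holds are given here. On the log2(TPM + 1) scale, desflurane minus sevoflurane, the difference was 0.68 for *Cyc1*, 0.33 for *Atp5if1*, 0.23 for *Cox6a1* and -0.41 for *Ndufa6*. It was 0.060 for *Atp5f1b*, 0.069 for *Sdha* and 0.057 for *Sdhd*, and the median of complex II differed by 0.058 (-0.03 with sevoflurane and 0.03 with desflurane).

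The tables hold none of the 13 mitochondrially encoded subunits by name, but an unnamed locus assembled on the mitochondrial chromosome stood above its control at 6 h, at 6152 TPM in desflurane 6 h (974 in the control) and 1190 TPM in sevoflurane 6 h (998 in the control). The locus spanned 16236, 11311, 16309 and 2347 bp in the 4 libraries (sevoflurane 0 h and 6 h, then desflurane 0 h and 6 h), so its TPM values refer to different lengths and do not measure the same transcripts.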

How the results depend on the processing

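The count of 0 subunits called held with a ratio above 3, a TPM above 5, scaled TPM and the control of the other agent. With a ratio above 1.5 sevoflurane gave 1 (*Cyc1*), and with no minimum TPM it gave 4 (*Cox6b2*, *Cox8b*, *Ndufa4l2* and *Ndufs6*) while desflurane, the controls and the 6 h libraries gave 1 each, all with values near 0 or 1 TPM. Taken from assembled loci, an alternative chosen after seeing the data, sevoflurane gave 2, *Atp5pb* and *Uqcrq*. The *Atp5pb* loci were at 256, 117, 123 and 239 TPM against 256, 232, 250 and 239 for its named rows. For each named row 1 locus was taken, so 2 were summed in sevoflurane 0 h and desflurane 6 h and 1 in the others. The *Atp5pb* loci are therefore not comparable between libraries. The *Uqcrq* locus was at 336, 121, 133 and 107 TPM against 98.1, 92.8, 108 and 96.1 for its row, and the cause for *Uqcrq* was not tested. The median change of the subunits was -0.18 (sevoflurane) and -0.0019 (desflurane) with scaled TPM and -0.20 and -0.055 with the control of the other agent. The median of complex III with desflurane changed sign, from -0.08 to 0.03 with scaled TPM, and no other median of a complex did so under the alternatives run. In the limma fit the subunits with adjusted p below 0.05 stayed at 0, while all genes fell from 692 to 440 without the trend and to between 163 and 591 with a library left out, the fewest without sevoflurane 0 h. Such fits have no agent block, and a lone library is assumed to vary like the others. No paired analysis was possible because each group has 1 library and the labels give no replicate numbers; the limma fit blocks on the agent instead, and without that block 0 subunits were called as well. One library per group and the lack of counts limit precision.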
